A study of Mus musculus with 4 samples.

Results

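The spots described here are the Pdyn and Crym rich striatal spots of coronal mouse brain sections, 1272 of the 12602 spots in the table. A spot is a small tissue area that can hold several cells and cells of several types. Members were chosen by measured values: at least 500 counts, a mean z of Ppp1r1b, Rgs9, Pde10a, Scn4b and Adora2a of at least 0.3 (the striatal score), and a mean z of Pdyn and Crym of at least 1. Each z was taken over all kept spots, after scaling to 10000 counts per spot and a log transform. These 7 genes are therefore a description of the members and no result.

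The study read sections from 4 untreated mice, 2 wild type and 2 heterozygous for Celsr3, an adhesion receptor of the cadherin family. The sections were formalin-fixed, paraffin-embedded brain, read with gene probes on a Visium CytAssist grid. Age, sex, strain and the nature of the Celsr3 allele were not given in the sources used here. Spot names fall into 4 barcode sets by their ending, and no ending matches a label, so no set was tied to a mouse or genotype. Values are given for each set, with 95% exact intervals that cover counting error only. No test over animals was possible, and differences between sets cannot be told apart from differences between mice, genotypes, slices or slides.

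Pdyn encodes prodynorphin, the precursor of the dynorphin peptides, which act mainly on the kappa opioid receptor encoded by Oprk1. In the striatum it is made mostly by projection neurons of the direct pathway, which carry the D1 dopamine receptor. Crym encodes mu-crystallin, a cytosolic protein that binds thyroid hormone. The ventral striatum, formed by the nucleus accumbens and the olfactory tubercle, differs from the dorsal striatum in its inputs and in many of its neuropeptides and receptors.

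The 4 sets held 318, 333, 283 and 338 members, in set order 1 to 4, which is also the order of every list of 4 values that follows. They made up 10.4%, 11.9%, 8.22% and 10.3% of the kept spots of their set. Of the spots that passed the striatal score they made up 41.5%, 37.8%, 29.1% and 59.1%, so set 4 stood highest by this share. The median member held 49408, 34597, 40579 and 23921 counts, against 46025, 33739, 39715 and 22643 in the other striatal spots. Summed over members, the sets gave 16967502, 11690270, 11875241 and 8257490 counts. The 1272 members used 1019 different barcodes, of which 802 were members in 1 set and 1 was a member in all 4.

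**Figure D1:**
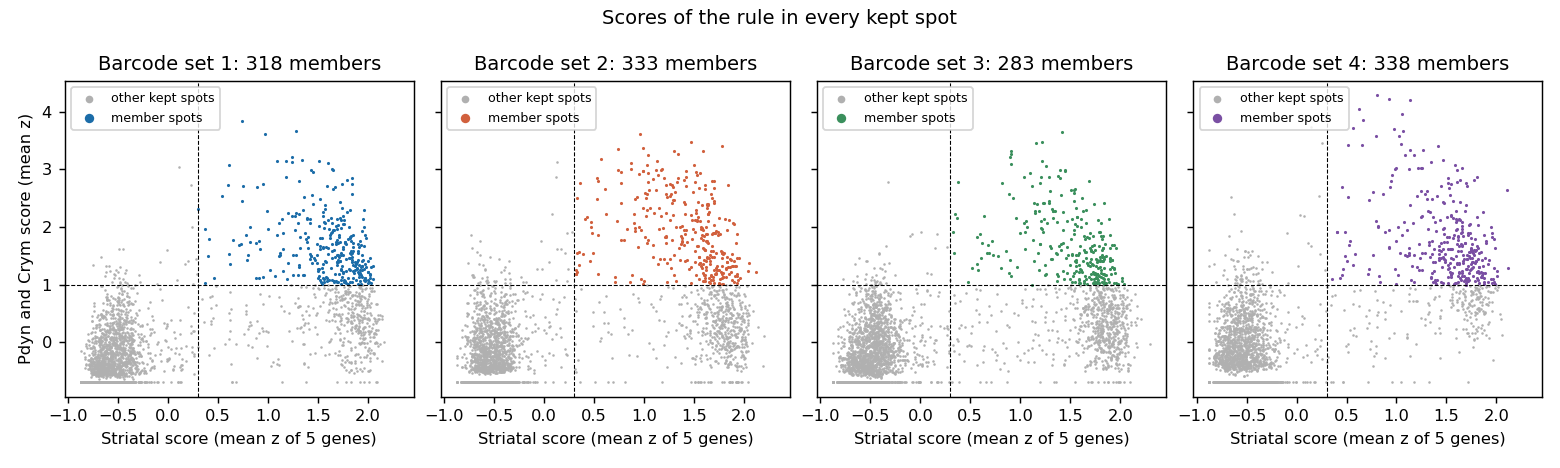
Each panel plots the kept spots of a barcode set by striatal score (x axis, mean z of 5 genes) and by Pdyn and Crym score (y axis, mean z), with dashed lines at the thresholds of 0.3 and 1. Members are coloured and other spots grey; the upper right cloud runs into the spots below the line of 1 without a gap in all 4 sets.

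Set 4 stood apart in the rule genes. Pdyn, in CPM (counts of the gene per 1000000 counts of the area), was at 173, 213, 159 and 499 in the members and at 65.2, 71.1, 59.1 and 184 in the other striatal spots. Crym was at 199.97, 205, 212 and 68.4 CPM in the members and at 54.2, 41.6, 48.0 and 10.7 CPM in the other striatal spots. Pdyn was thus highest and Crym lowest in set 4, in both areas. Members whose Crym z alone reached 1 numbered 259, 284, 247 and 101, and those with both z values of at least 1 numbered 176, 205, 147 and 98. The label of Crym rich spots therefore went against the data for most members of set 4, which entered through Pdyn. Each comparison with the other striatal spots is given below for each set, so that it can be read with and without set 4. With z taken within each set, the members numbered 367, 291, 329 and 266.

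The threshold on Pdyn and Crym cut a continuous range. The 131 spots just inside it, with scores of 1 to 1.1, held Pdyn at 147 CPM and Crym at 96.2 CPM. The 136 striatal spots just outside, with scores of 0.9 to 1, held Pdyn at 136 CPM and Crym at 86.8 CPM. Few spots lay near the striatal threshold, with 20 members at striatal scores of 0.3 to 0.4 and 17 spots at 0.2 to 0.3.

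The striatal part of the name was checked with 12 genes of striatal projection neurons that the rule did not use, among them Drd1 and Drd2, the dopamine receptors of the direct and indirect pathways, and Penk, the precursor of the enkephalins. All 12 were higher in the members than in the spots that were neither striatal nor Pdyn and Crym rich, in each set, by 4.11 to 38.8 times. Drd2 was at 324, 281, 259 and 259 CPM in the members and at 8.34, 11.01, 7.67 and 8.03 CPM in those spots. The ventral part could not be checked by position, because spot positions were not used here. Gene lists described below were read for it, but they were drawn up with earlier results of these data known. They are no independent check of the ventral part. In bulk sums such as these, fewer cells of a type and less RNA per cell cannot be told apart.

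The members were set against the other striatal spots, 449, 547, 691 and 234 in number. These pass the same striatal threshold and lie under 1 on the Pdyn and Crym score, but were not matched for striatal level. Pde10a was at 1600, 1359, 1499 and 1356 CPM in the members against 1875, 1970, 1973 and 1412 CPM. Ppp1r1b was at 4429, 5510, 5820 and 5635 CPM against 5156, 7472, 7159 and 5603 CPM. Scn4b and Adora2a were also lower in the members of all 4 sets, and Rgs9 was lower in those of sets 1 to 3. The part of this in the ratios was not tested. Both areas come from the same sections, so each set gives its own ratio. Dlk1, P2ry1, Crh, Atp6v1c2, Cartpt, Col6a1 and Syt10 were at least 2-fold higher in all 4 sets. Nxph3, Slc17a7, Ccn2 and Robo3 were at least 2-fold lower in all 4. Of 9815 genes that averaged 10 CPM or more over both areas, the 7 higher genes were 0.0713% and the 4 lower genes 0.0408%. A fold was read from CPM with 1 CPM added, which understates that of low genes. By a looser reading, in which the interval of the ratio leaves out 1 in all 4 sets, 330 genes (3.36%) were higher and 258 (2.63%) were lower. The median gene lay at a log2 ratio of 0.03, 0.06, 0.05 and 0.01. Sets counted alone gave 25, 94, 45 and 8 genes at least 2-fold higher and 11, 29, 19 and 12 lower, so that set 4 had the fewest higher genes and set 2 the most of both. With scores and calls made again without set 4, 16 genes were higher, among them 5 of the 7, Wfs1, Gpr101 and Ttr, while Crh and Cartpt were not. Crh kept its fold, at a log2 ratio of 1.21 in the set nearest to 0, but its mean was under 10 CPM, and Cartpt came to 0.90. The lower genes were then 6, with Cnr1 among them and Slc17a7, at -0.86, not. Without set 2 the lower genes numbered 7. With Pdyn alone in place of the mean of both genes, a choice made after seeing the data, 2 genes were higher (P2ry1 and Cartpt) and 0 lower.

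Cartpt encodes the peptide precursor CART, a known product of the nucleus accumbens shell. It was at 11.5, 61.0, 18.5 and 41.5 CPM in the members and at 2.94, 8.65, 7.71 and 7.39 CPM in the other striatal spots, ratios of 3.91, 7.05, 2.40 and 5.62. Crh, the precursor of corticotropin-releasing hormone, was at 12.1, 30.1, 4.80 and 28.8 CPM in the members against 1.87, 2.31, 1.18 and 4.25 CPM. Dlk1, a membrane protein of the Delta-like family from an imprinted locus, was at 14.7, 39.1, 25.4 and 13.8 CPM against 2.24, 4.35, 4.30 and 3.51 CPM. For all 3 genes the lowest member value lay above the highest value of the other striatal spots. In the spots outside both scores Dlk1 stood at 44.4, 97.4, 37.4 and 70.4 CPM and Cartpt at 72.0, 84.0, 88.1 and 63.8 CPM, above the members in each set. Crh stood at 11.3, 26.4, 8.68 and 21.4 CPM there, so it was above the members only in set 3.

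P2ry1, a receptor for ADP and ATP, was at 34.9, 17.9, 33.9 and 22.9 CPM in the members. The other striatal spots held 10.0, 3.81, 8.79 and 5.18 CPM and the spots outside both scores 5.12, 3.22, 4.34 and 3.98 CPM. Its ratios to the other striatal spots were 3.48, 4.69, 3.85 and 4.42, the narrowest spread among the 7 higher genes. P2ry1 was thus higher in the members than in either group of spots in each set. Syt10, a synaptotagmin of regulated secretion, was at 49.4, 49.1, 53.6 and 55.9 CPM in the members against 20.1, 12.8, 24.1 and 23.1 CPM. Its level in the members differed little between sets.

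Col6a1, a chain of collagen VI, was at 109, 72.4, 106 and 61.2 CPM in the members against 36.5, 13.8, 29.8 and 27.5 CPM in the other striatal spots. The spots outside both scores held 22.4, 23.1, 26.1 and 17.7 CPM, less than the members in each set. Atp6v1c2, a subunit of the proton-pumping V-ATPase, was at 23.9, 22.2, 26.9 and 8.48 CPM against 5.88, 3.44, 4.91 and 2.96 CPM. Its ratio was lowest in set 4, at 2.87 with an interval of 1.65 to 5.29. Hist1h3b, a histone H3 gene, lay just short of 2-fold on the scale used, at a log2 ratio of 1.00 in set 4, and had ratios of 2.98, 7.47, 3.22 and 2.14. Histone H3 genes are nearly identical in their coding sequence, so its counts are open to probe sharing.

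Slc17a7 encodes the vesicular glutamate transporter of cortical excitatory neurons. It was at 42.0, 31.6, 37.2 and 49.2 CPM in the members, at 153, 101, 164 and 251 CPM in the other striatal spots and at 1437, 1829, 1656 and 1300 CPM in the spots outside both scores. Nxph3, a neurexophilin, was at 5.60, 4.19, 5.98 and 7.27 CPM in the members against 20.3, 18.3, 27.6 and 47.1 CPM. Ccn2, a matrix-associated growth factor that marks deep cortical layer 6b, was at 7.25, 9.58, 3.71 and 11.5 CPM against 23.2, 32.8, 26.2 and 62.3 CPM. Outside both scores Nxph3 stood at 46.7 to 65.9 CPM and Ccn2 at 32.9 to 62.6 CPM, also above the members. A list of 12 cortical excitatory neuron markers had median log2 ratios of -0.90, -0.36, -0.87 and -1.44 between members and other striatal spots. The summed level of these markers was 253 to 384 CPM in the members, 366 to 691 CPM in the other striatal spots and 2567 to 3423 CPM outside both scores; none of the 12 was at 0 in the members. Their part in these results was not tested. Robo3, an axon guidance receptor, was at 7.60, 4.53, 4.88 and 7.15 CPM in the members against 31.4, 24.9, 26.2 and 15.9 CPM.

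**Figure D2:**
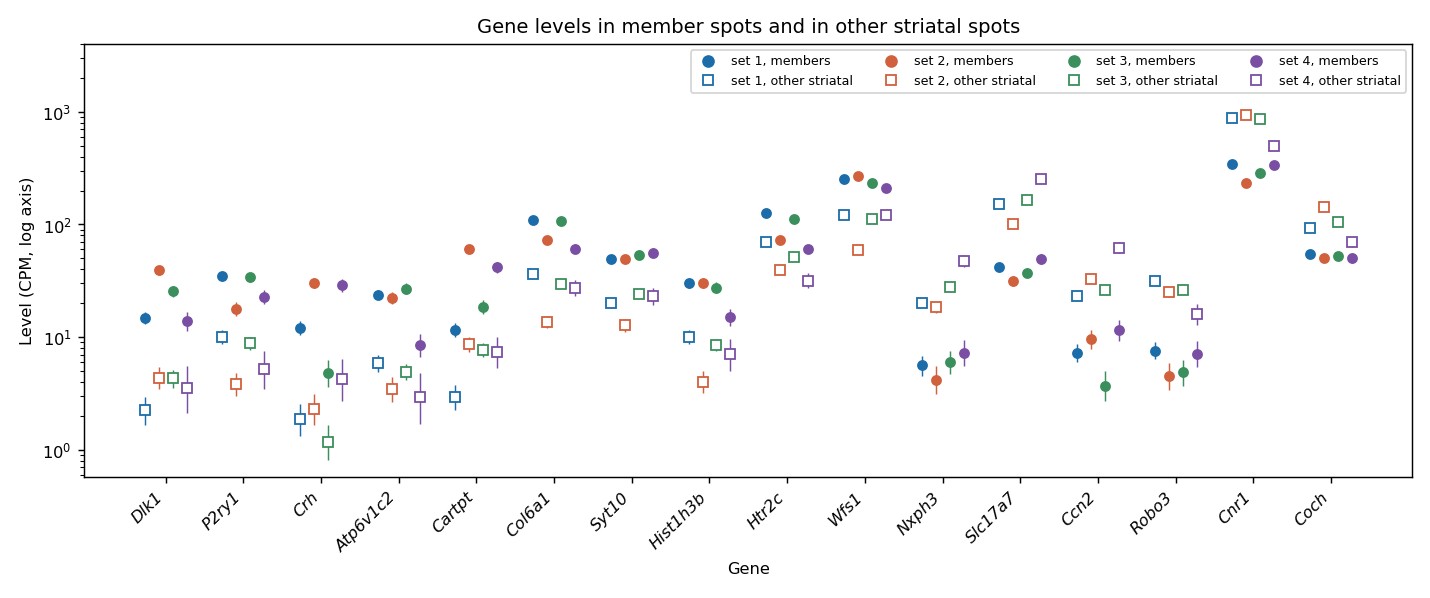
Level of 16 genes in CPM (log axis) in the members (filled circles) and in the other striatal spots (open squares) of the 4 barcode sets, with 95% exact Poisson intervals for counting error. Circles lie above squares in every set for the 10 genes on the left and below them for the 6 on the right; Cnr1 is nearest in set 4, at 335 against 498 CPM.

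The list of ventral striatum genes was drawn up with earlier results of these data known, and its counts are not independent support for the name. Of its 14 genes with at least 10 CPM, 7 were higher in all 4 sets by the interval and 1 was lower. Over all genes tested, 3.36% were higher and 2.63% lower. The counts of every list below are to be read beside these shares, and low counts from a short list say nothing of it. The higher genes were Cartpt, Dlk1, Peg10, Wfs1, Lypd1, Synpr and Gda, and the lower gene was Cck. The list had 20 genes, 19 of them at a mean of 1 CPM or more, with median log2 ratios of 0.34, 0.95, 0.55 and 0.28. Its summed level was 1292 to 1582 CPM in the members and 935 to 1142 CPM in the other striatal spots. Outside both scores it was 1983 to 2385 CPM, above the members, so the list is not particular to them. Wfs1, a protein of the endoplasmic reticulum, was at 255, 267, 235 and 211 CPM in the members against 121, 59.5, 111 and 121 CPM. Its members were alike across sets, and the other striatal spots of set 2 were lowest. Cck, the precursor of cholecystokinin, was at 45.5, 49.9, 30.7 and 28.3 CPM against 86.1, 69.8, 80.8 and 125 CPM; it was also at 685 to 943 CPM outside both scores.

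Other ventral genes differed less or were too low to read. Synpr, a synaptic vesicle protein, had ratios of 1.27, 1.19, 1.16 and 1.11. Nts, the precursor of neurotensin, was at 45.1, 31.1, 11.6 and 46.9 CPM in the members against 37.3, 12.4, 10.8 and 37.3 CPM, and the interval of its ratio included 1 in set 3. Drd3, the D3 dopamine receptor known from the accumbens and the islands of Calleja, was at 3.01, 9.41, 3.45 and 1.57 CPM against 1.17, 1.72, 1.36 and 2.40 CPM. Its ratios were 2.58, 5.47 and 2.53 in sets 1 to 3, with intervals above 1, and 0.655 in set 4, with an interval of 0.280 to 1.53. The D3 receptor gene was therefore higher in the members of 3 sets and not distinguishable at this depth in set 4.

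The list of dorsal striatum genes was likewise drawn up with earlier results of these data known. Of its 12 genes, 0 were higher and 4 were lower in all 4 sets, beside 3.36% and 2.63% of all genes tested. The list had median log2 ratios of -0.14, -0.30, -0.34 and -0.09. Cnr1, the CB1 cannabinoid receptor, which in the striatum is richest dorsolaterally, was at 347, 234, 288 and 335 CPM in the members against 888, 930, 863 and 498 CPM. Its ratios were 0.391, 0.252, 0.334 and 0.674, so set 4 showed the smallest gap. Coch, the gene of the secreted protein cochlin, was at 54.9, 50.9, 52.0 and 50.4 CPM against 93.9, 142, 106 and 70.4 CPM. Gpr155 had ratios of 0.675, 0.426, 0.626 and 0.861. Kcnab1, a potassium channel beta subunit, had ratios of 0.817, 0.636, 0.745 and 0.924.

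**Figure D3:**
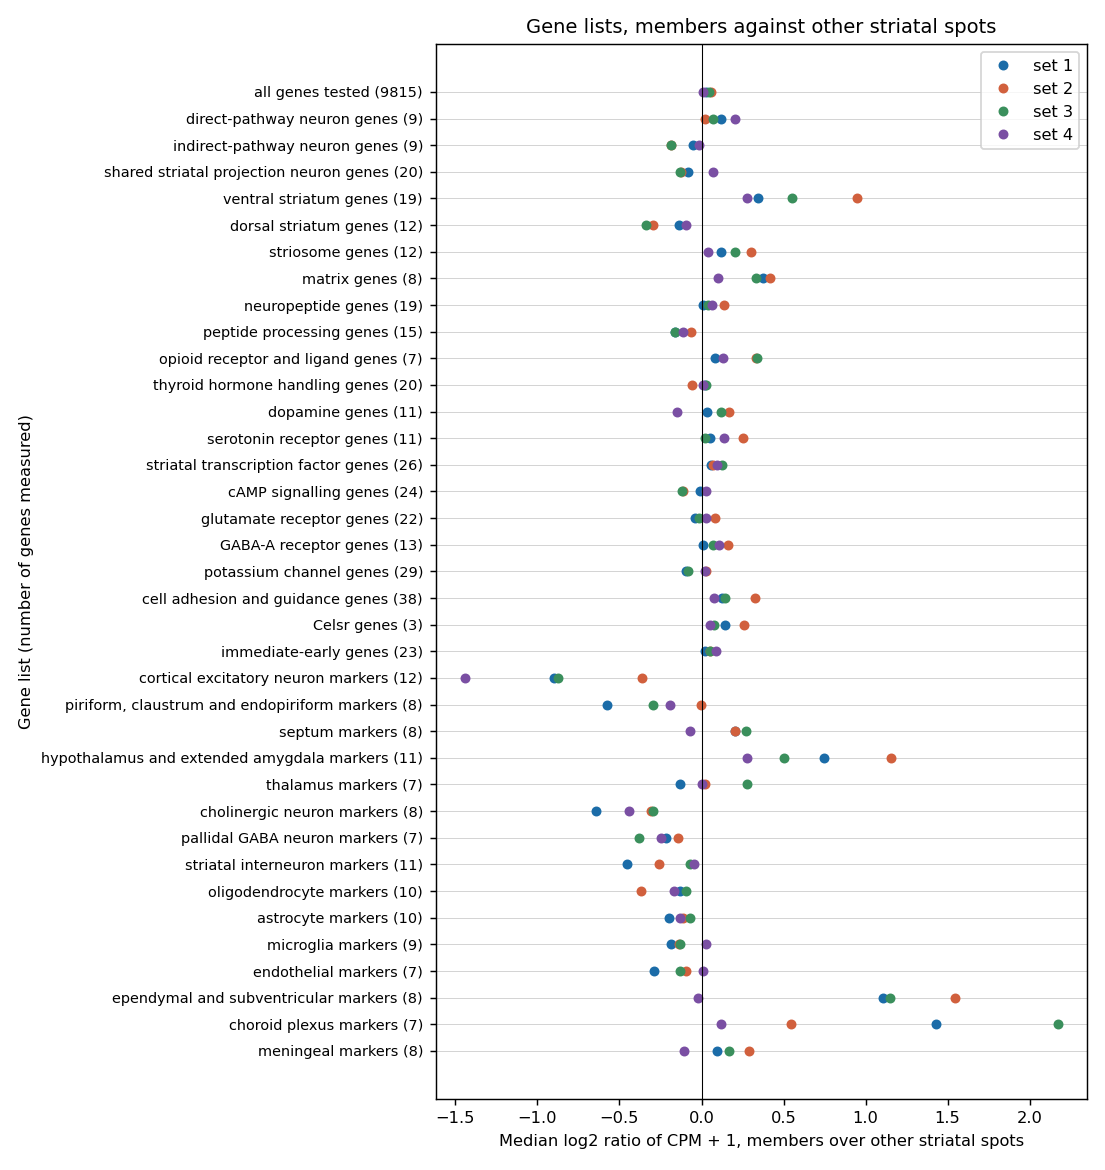
Median log2 ratio of CPM + 1, members over other striatal spots, for each gene list and for all genes tested (y axis, with the number of genes measured), with a point for each barcode set. Ventral striatum genes lie right of 0 in all 4 sets and dorsal striatum genes left of it, while all genes tested lie at 0.01 to 0.06. The lists were drawn up with earlier results of these data known.

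Genes of the opioid system were split. Oprk1, the receptor for the peptides made from prodynorphin, was at 23.5, 27.9, 22.7 and 32.0 CPM in the members against 16.4, 17.4, 17.7 and 23.8 CPM, with ratios of 1.43, 1.61, 1.28 and 1.34. Oprm1, the mu receptor and a marker of striosomes, was at 38.4, 47.5, 40.6 and 28.0 CPM against 20.7, 26.6, 22.1 and 20.2 CPM. Oprd1, the delta receptor, was lower, at 34.6, 40.1, 33.9 and 48.3 CPM against 43.4, 65.8, 51.6 and 59.3 CPM. By the interval, 2 of the 5 list genes tested were thus higher and 1 lower in all 4 sets. Penk, the other large opioid precursor of the striatum, had ratios of 0.971, 0.814, 0.830 and 1.09, below 1 in 3 sets and above it in set 4.

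Genes of the striosomes and the matrix, the patch and surround compartments of the striatum, were read next. Both lists were drawn up with earlier results of these data known. Most of the striosome list did not pass in all 4 sets, and the matrix list went both ways. Of 12 striosome genes, Oprm1, Lypd1, Nnat and Gad2 were higher in all 4 sets and 0 were lower. Of 8 matrix genes, Calb1, Id4 and Gda were higher and Rasgrp2 was lower. Calb1, the calcium-binding protein calbindin, was at 502, 781, 576 and 601 CPM in the members against 372, 608, 429 and 375 CPM. Id4, an inhibitor of helix-loop-helix transcription factors, had ratios of 1.36, 1.66, 1.34 and 1.08.

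Projection neuron genes differed little. Drd1 was at 60.9, 53.1, 58.5 and 49.2 CPM in the members against 56.0, 54.5, 59.0 and 46.4 CPM, and the interval of its ratio left out 1 only in set 1, by a narrow margin. Drd2 was lower in all 4 sets, with ratios of 0.830, 0.661, 0.754 and 0.902. Tac1, the precursor of substance P, had ratios of 1.01, 1.1005, 1.05 and 1.15. Of 9 direct-pathway genes, Isl1 and Sfxn1 were higher in all 4 sets; Isl1, a transcription factor of direct-pathway neurons, had ratios of 1.33, 1.42, 1.37 and 1.37. Of the genes that both pathways share, Arpp21, Rgs14 and Dclk3 were higher, while Rasd2 and Lrrc10b were lower. Rgs14, a regulator of G protein signalling, was at 45.5, 79.7, 39.2 and 78.1 CPM against 30.0, 40.2, 28.6 and 45.8 CPM. Rasd2, a small GTP-binding protein of striatal neurons, had ratios of 0.764, 0.663, 0.723 and 0.893.

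Receptors of serotonin and genes of thyroid hormone handling were read because of Htr2c, a serotonin receptor of the striatum, and because of Crym. Htr2c was at 127, 72.6, 111 and 60.4 CPM in the members against 69.6, 39.5, 51.8 and 31.6 CPM, ratios of 1.83, 1.84, 2.15 and 1.91. Of the 6 serotonin receptors tested only Htr2c was higher in all 4 sets, and 0 were lower, too few genes to say more of the list. Of 18 thyroid hormone genes tested, only Thra was higher in all 4 sets and only Nrgn lower, which is near the shares over all genes (3.36% and 2.63%), so these counts say nothing of the list. Thra, a nuclear thyroid hormone receptor, had ratios of 1.16, 1.20, 1.17 and 1.07. Nrgn, the calmodulin-binding protein neurogranin, whose gene is a known thyroid hormone target in the striatum, was at 761, 1032, 593 and 1708 CPM in the members against 1411, 2291, 1292 and 2224 CPM. Nrgn is also strongly expressed in cortex, and the spots outside both scores, of whatever area, held 891 to 1795 CPM.

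Secretion genes went both ways. Scg2, a secretogranin of dense-core vesicles, had ratios of 1.21, 1.38, 1.42 and 1.34, while the granins Chga and Chgb had ratios of 0.801, 0.761, 0.832 and 0.923 and of 0.877, 0.868, 0.819 and 0.917. Of the 15 peptide processing genes 1 was higher and 4 were lower in all 4 sets. Of 23 striatal transcription factor genes tested, Isl1, Id4, Zbtb20 and Dlx5 were higher in all 4 sets and 0 were lower.

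Markers of neighbouring areas and other cells differed as well. Of 9 hypothalamus and extended amygdala markers tested, Hap1, Baiap3, Ahi1, Zcchc12 and Nnat were higher in all 4 sets and Ecel1 was lower. The summed level of that list was 1039 to 1447 CPM in the members, 780 to 921 CPM in the other striatal spots and 2312 to 2906 CPM outside both scores. Ependymal and subventricular markers summed to 147 to 205 CPM in the members and 63.2 to 163 CPM in the other striatal spots, with median log2 ratios of 1.11, 1.54, 1.15 and -0.02. Choroid plexus markers summed to 7914, 162, 8286 and 160 CPM in the members and to 2421, 81.7, 1438 and 106 CPM in the other striatal spots. Ttr, the transthyretin gene and the defining gene of choroid plexus, was at 7693, 10.4, 8004 and 15.5 CPM in the members, most of the sum in sets 1 and 3 but a small part of it in sets 2 and 4. None of the markers of these 3 lists that were measured was at 0 in the members. Their part in the gene differences was not tested.

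Most myelin genes and some interneuron genes were lower. Of 10 oligodendrocyte markers, 7 were lower in all 4 sets and 0 higher, with summed levels of 8999 to 13874 CPM in the members and 10873 to 15733 CPM in the other striatal spots. Mbp, myelin basic protein, had ratios of 0.913, 0.768, 0.873 and 0.877. The cholinergic markers Chat and Slc18a3 were both lower in all 4 sets. Chat, which makes acetylcholine, was at 8.55, 13.1, 9.52 and 11.3 CPM against 16.8, 19.98, 14.5 and 16.3 CPM. Of 10 striatal interneuron markers tested, Pvalb, Chat and Cck were lower in all 4 sets and 0 were higher, and the list had median log2 ratios of -0.45, -0.26, -0.07 and -0.05. Pvalb, which marks fast-spiking interneurons and is also common in cortex, was at 39.5, 29.8, 21.0 and 63.6 CPM against 61.1, 60.0, 49.6 and 121 CPM. Of 9 microglia and 6 endothelial markers tested, 0 were higher and 0 lower in all 4 sets. With so few genes this is near the shares over all genes (3.36% and 2.63%) and says nothing of these lists.

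The striatal spots were then ordered by the Pdyn and Crym score in steps. From the lowest step (under 0) to the highest (1.5 and over), Wfs1 went from 84.4 to 301 CPM in set 1, from 38.2 to 336 CPM in set 2, from 81.7 to 289 CPM in set 3 and from 82.3 to 252 CPM in set 4. Cnr1 went from 1070 to 228 CPM, from 1115 to 141 CPM and from 964 to 181 CPM in sets 1 to 3. In set 4 it was at 287 CPM in the lowest step, which held 27 spots, peaked at 537 CPM in the step from 0.5 to 1 and ended at 244 CPM. Col6a1 and P2ry1 were highest in the top step in all 4 sets, as was Dlk1, at 22.2, 53.8, 38.5 and 20.7 CPM. Drd1 stayed between 38.4 and 62.2 CPM in every step and set.

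**Figure D4:**
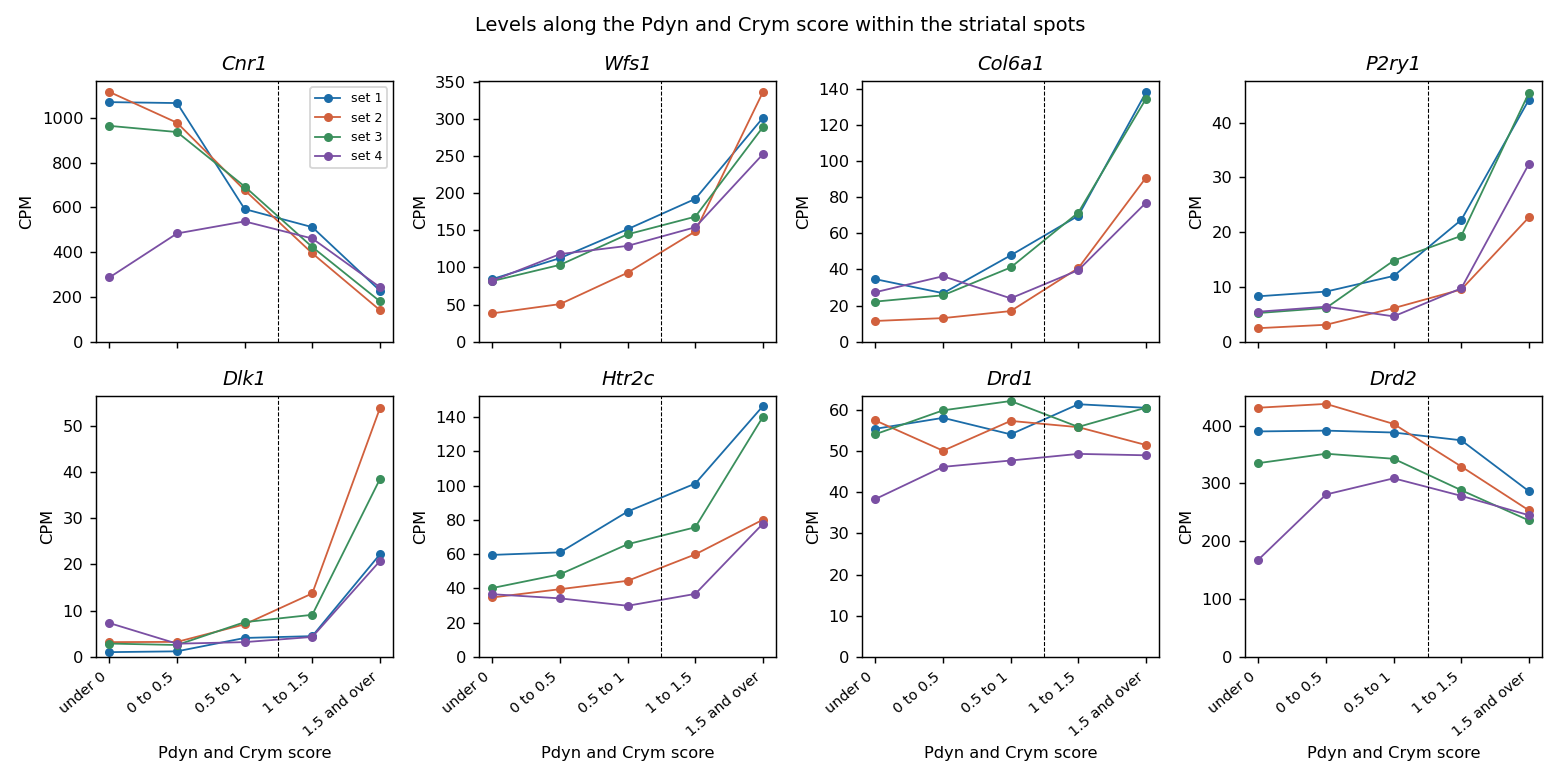
Level of 8 genes in CPM (y axes, from 0) along 5 steps of the Pdyn and Crym score in the striatal spots, with a line for each barcode set and a dashed line at the member threshold of 1. Wfs1, Col6a1, P2ry1, Dlk1 and Htr2c end highest in the top step in every set; Cnr1 ends lowest there in every set.

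The members varied among themselves by striatal score. Those with striatal scores of 0.3 to 1 numbered 32, 57, 34 and 47, or 10.1%, 17.1%, 12.01% and 13.9% of the members, and those of 1 and over 286, 276, 249 and 291. Dlk1 was at 74.9, 138, 89.1 and 57.7 CPM in the lower-scoring members and at 8.29, 21.4, 16.9 and 8.19 CPM in the others. Cartpt was at 60.3, 115, 80.6 and 165 CPM against 6.26, 51.3, 10.2 and 25.8 CPM, and Crh at 65.7, 66.0, 17.8 and 137 CPM against 6.33, 23.7, 3.06 and 15.02 CPM. Hap1, a hypothalamic marker, was at 349, 358, 408 and 265 CPM against 120, 163, 194 and 93.3 CPM, and Ttr at 25065, 25.9, 29676 and 35.3 CPM against 5831, 7.56, 5102 and 13.0 CPM. All 5 genes were thus higher in the lower-scoring members of every set, and the part of the neighbouring areas in this was not tested. Without the lower-scoring members, 4 genes were at least 2-fold higher in all 4 sets: P2ry1, Atp6v1c2, Syt10 and Hist1h3b. Only the members were cut in this way. The other striatal spots still held striatal scores of 0.3 and over, so the 2 areas were not matched for striatal score. Dlk1 kept its fold, with a log2 ratio of 1.03 in the set nearest to 0, but its mean over both areas was then under the minimum of 10 CPM. Col6a1 and Crh came just under the fold in their nearest set, at 0.97 and 0.89, and Cartpt was well under it, at 0.36. P2ry1 was at 32.2, 16.9, 30.9 and 19.9 CPM in the members with striatal scores of 1 and over, which are most of the members. It was at 60.3, 23.1, 55.6 and 45.9 CPM in the lower-scoring members, so it too was higher there in every set.

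Few spots carried most counts of the low peptide genes. The 10% of members with most Dlk1 counts held 71.2%, 67.8%, 57.3% and 77.2% of all Dlk1 counts in the members. For Crh these shares were 87.8%, 78.1%, 87.7% and 87.4%, and for Cartpt 66.2%, 72.7%, 72.3% and 82.2%. For P2ry1 they were lower, at 40.5%, 45.9%, 37.8% and 54.0%. In the other striatal spots the shares were 100%, 100%, 85.8% and 100% for Dlk1 and 100% in each set for Crh. For Cartpt they were 95.2%, 84.5%, 65.1% and 100% there, and for P2ry1 52.1%, 91.5%, 62.4% and 92.9%. All but that of Cartpt in set 3 lay above the share in the members. Where fewer than 10% of the spots hold a count, this share is always 100%. That was so for Crh, with a count in 4.63% to 6.84% of the other striatal spots. The Dlk1, Crh and Cartpt levels thus rest on a small part of the spots in both areas, which is no trait of the members.

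Members were split by whether the z of Pdyn or that of Crym was higher. Pdyn-led members numbered 122, 122, 84 and 323, and Crym-led members 196, 211, 199 and 15, so that set 4 was 95.6% Pdyn-led. Of 9925 genes tested, 0 (0%) were 2-fold higher in the Pdyn-led members of all 4 sets and 9 (0.0907%) were 2-fold lower. Sets counted alone gave 3, 4, 10 and 430 genes at least 2-fold higher and 19, 24, 33 and 373 lower. In set 4 the Crym-led side was only 15 spots, so its ratios carry a large counting error. By the interval, 46 genes (0.463%) were higher and 46 (0.463%) were lower. The lower genes were led by Ttr, Ecrg4 and Calml4. With scores and calls made again without set 4, 0 genes were 2-fold lower. That run also changed which spots of the other sets were members and how they were split. It therefore does not show what the 15 Crym-led spots of set 4 contributed. Ttr was at 3712, 4.18, 763 and 14.4 CPM in the Pdyn-led members and at 9687, 14.3, 10679 and 49.8 CPM in the Crym-led members. It was lower in the Pdyn-led members of every set.

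Nts was higher in the Pdyn-led members, at 55.6, 43.8, 18.4 and 47.8 CPM against 39.9, 22.9, 9.11 and 19.1 CPM. Here and below, the Crym-led values of set 4 come from 15 spots and rest on few counts for low genes. Lypd1, a gene of the striosome list, had ratios of 1.34, 1.43, 1.28 and 1.51, and Tac1 ratios of 1.18, 1.24, 1.24 and 1.26. Oprm1 had ratios of 1.58, 1.38, 2.22 and 1.22, with the interval above 1 in sets 1 to 3 and from 0.554 to 3.37 in set 4. Slc17a7 was also higher in the Pdyn-led members, at 58.6, 54.8, 50.3 and 50.1 CPM against 33.7, 16.8, 32.4 and 19.1 CPM. Wfs1 had ratios of 1.27, 1.04, 1.08 and 1.26, with the interval above 1 in set 1 alone.

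A further 38, 55, 45 and 80 spots reached the same Pdyn and Crym score without the striatal score. Of 10026 genes, 238 (2.37%) were 2-fold higher and 385 (3.84%) 2-fold lower in the members in all 4 sets. Drd2 was at 324, 281, 259 and 259 CPM in the members and at 16.9, 19.6, 11.1 and 14.3 CPM outside. Slc17a7 was at 42.0, 31.6, 37.2 and 49.2 CPM in the members and at 2288, 2091, 2417 and 2352 CPM outside. Neurod2, a transcription factor of cortical excitatory neurons, was at 1.68 to 3.03 CPM in the members and at 98.9 to 156 CPM outside. The Pdyn and Crym rich spots that missed the striatal score differed from the members in both kinds of gene in every set. The striatal score itself split these groups, so such differences follow from how the spots were chosen and describe them only.

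Celsr3 was read in the members of each set, without a genotype. It was at 34.1, 50.7, 26.4 and 45.5 CPM in the members, at 30.8, 42.3, 25.0 and 42.0 CPM in the other striatal spots and at 31.6, 47.0, 26.2 and 47.6 CPM outside both scores. The ratios of members to other striatal spots were 1.11, 1.20, 1.06 and 1.09, and the interval left out 1 only in set 2. With TMM or RLE scaling the lowest of the 4 log2 ratios was below 0, at -0.05 and -0.03. Celsr2 was at 164, 157, 173 and 160 CPM in the members, and Celsr1 at 6.37, 5.22, 9.85 and 3.15 CPM. Celsr3 was high in sets 2 and 4 and low in sets 1 and 3 in all 3 areas.

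The member profiles of the sets fell into the same pairs. Of 9870 genes, 31 (0.314%) differed at least 2-fold between the members of set 1 and those of set 3, and 57 (0.578%) did so for sets 2 and 4. The other pairings of sets gave more such genes: 624 (6.32%) for 1 with 2, 691 (7%) for 1 with 4, 457 (4.63%) for 2 with 3, and 558 (5.65%) for 3 with 4. The median depth of the members was also higher in sets 1 and 3, at 49408 and 40579 counts, than in sets 2 and 4, at 34597 and 23921 counts, and its part in these counts was not tested. The widest range was that of Ttr. Gm10260 was at 2.53 CPM in set 1 and at 149 to 303 CPM in the other members, Zfp180 at 48.6 CPM in set 1 and at 0.242 to 0.842 CPM in the others, and Tmem267 at 0.342 CPM in set 2 and at 29.2 to 50.1 CPM in the others. Amd1 had 0 counts in the members of set 3, against 15.8 to 39.6 CPM in the others. Each of these 4 genes had the same low sets in the other striatal spots.

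Immediate-early genes, which neurons switch on with activity, ranged widely between sets. Their median range over the 4 sets was 1.36 on the log2 scale in the members, against 0.50 for all genes, and was 1.34 in the other striatal spots. Fos was at 8.13, 49.7, 3.79 and 27.6 CPM in the members, and Arc at 119, 308, 72.4 and 298 CPM. Both were high in sets 2 and 4. Within a set, Fosb and Junb were higher in the members than in the other striatal spots in all 4 sets. Of the 20 immediate-early genes tested 0 were lower, beside shares over all genes of 3.36% higher and 2.63% lower. Fosb had ratios of 1.49, 1.81, 1.89 and 1.86 and Junb ratios of 1.41, 1.48, 1.60 and 1.32.

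**Figure D5:**
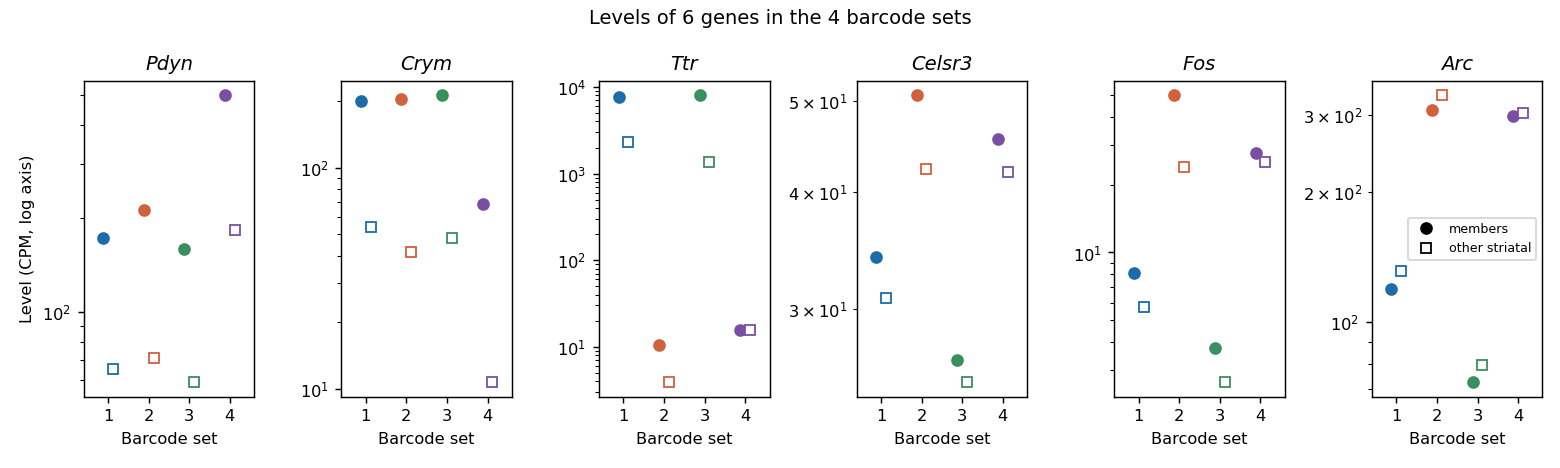
Level of 6 genes in CPM (log axes) in the members (filled circles) and the other striatal spots (open squares) of barcode sets 1 to 4. Celsr3, Fos and Arc are high in sets 2 and 4 in both areas, Ttr is high in sets 1 and 3, and Pdyn is highest and Crym lowest in set 4.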

How the data were processed

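Per the labels' protocols, coronal FFPE sections of 4 mice (2 wild type, 2 Celsr3 heterozygous) were read with Visium CytAssist version 2. The authors deposited raw counts, whole numbers for 19465 genes by 12602 spots; the submitters' processing notes name Space Ranger and Seurat without a role. The genome build, the probes used and how the authors chose spots are not given in the sources used here. Probes read part of each transcript, so levels of different genes are not comparable, and related genes may share probes.

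Spots under 500 counts (1 spot) were left out, and the rest were scored as described. Counts were summed per area and barcode set, and CPM taken over all counts of that sum. Intervals are exact Poisson (CPM), Clopper-Pearson (shares) and conditional binomial (ratios) at 95% (scipy 1.17.1). A gene was called at 2-fold in log2(CPM + 1) in all 4 sets, with a mean of at least 10 CPM; medians of lists used 1 CPM. The members and lists were chosen with earlier results of these data known. Genes were named by rank over the 4 sets (15 each way against other striatal spots, 6 between Pdyn-led and Crym-led members), by list and for the widest range over sets; other genes were chosen after their values were seen, and some genes of the rule and lists are not reported here. Planned genotype tests in edgeR and DESeq2 need each section's genotype and were not run. Alternatives covered the thresholds, z within sets, thinning to 10000 counts, leaving out sets, TMM and RLE factors (edgeR 4.0.16, R 4.3.3), the CPM minimum and the pseudocount. On simulated data for members against other striatal spots, 97% of 200 genes changed 2.5-fold and 100% of 200 changed 4-fold were recovered, with 0 unchanged genes called. The simulated counts had Poisson error only, the same profile and fold in all 4 sets, and no low gene changed. In the real members 1094 of 9870 genes ranged 2-fold or more between sets. These rates therefore do not carry over to the calls made here, least of all for low genes such as Crh. Sums and scores used numpy 2.4.6 and pandas 2.3.3 under Python 3.11.15, and figures matplotlib 3.10.9.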

Additional observations from a re-analysis of the deposited data

How the results depend on the processing

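No paired analysis was possible because no barcode set could be tied to an animal; the genotype tests, the replicate block and leaving out animals were not run. Counts of 0 from the calls have no test behind them. At a Pdyn and Crym score of at least 0.75 the member shares of sets 1 to 4 were 13.3%, 14.3%, 11.1% and 12.6%, and at 1.5 they were 5.76%, 7.59%, 4.36% and 5.89%. With z within each set they were 12.01%, 10.4%, 9.55% and 8.08%, and with spots thinned to 10000 counts 8.19%, 9.71%, 6.72% and 9.25%. When a set was left out, the share ran from 10.2% to 10.998% for set 1. It ran from 11.6% to 11.9% for set 2, from 7.90% to 8.62% for set 3, and for set 4 from 9.38% to 10.3%. Alternatives chosen after seeing the data were Crym alone (13.7%, 10.2% and 3.16% in sets 2 to 4), Pdyn alone (13.5% in set 2, 15.6% in set 4) and members with a striatal score of at least 1 (9.83%, 7.23% and 8.83% in sets 2 to 4).

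The 7 genes higher than in other striatal spots became 4 at a score of 0.75, with thinning, with a pseudocount of 5 CPM and with a striatal score of at least 1, 13 at a score of 1.5 and 2 with Pdyn alone; leaving out a set gave 7 to 16. P2ry1 was among the higher genes under each of these alternatives. The 4 lower genes became 10 without a minimum CPM, 8 with Crym alone and 0 with Pdyn alone; leaving out a set gave 4 to 7. With Pdyn alone, the log2 ratio nearest to 0 changed sign for Atp6v1c2 (-0.0752), Baiap3 (-0.22), Robo3 (0.21), Sema7a (0.0740), Cnr1 (0.32), Tpm2 (0.35), Ptpn7 (0.25), Nrn1 (0.22) and Celsr3 (-0.0824). It also did for Hist1h3b with thinning (-0.44), for Nrn1 at a score of 0.75 (0.0434) and without set 4 (0.25, the range without a set being -0.78 to 0.25), and for Celsr3 with TMM (-0.0534), RLE (-0.0289) and Crym alone (-0.0582). List medians turned for direct-pathway (-0.00376), transcription factor (-0.00275) and neuropeptide genes (-0.00435) with TMM, for neuropeptide genes with RLE (-0.00216) and Crym alone (-0.0413), for immediate-early genes with TMM (-0.0415) and RLE (-0.0389) and for oligodendrocyte markers with Crym alone (0.00478). The cause was not tested.

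For Pdyn-led against Crym-led members, the 0 higher genes became 1 without set 1 or set 2 (range 0 to 1). The 9 lower genes became 5 at a score of 0.75, 0 with z within sets and with thinning, 27 without a minimum CPM and 1 with a pseudocount of 5 CPM; leaving out a set gave 0 to 11. Without a minimum CPM, the genes 2-fold apart between sets 1 and 2, 1 and 3, 1 and 4, 2 and 3, 2 and 4 and 3 and 4 numbered 1031, 82, 1328, 786, 182 and 1059. With a pseudocount of 5 CPM they numbered 383 for sets 1 and 2, 454 for 1 and 4, 291 for 2 and 3 and 31 for 2 and 4. Set 4 was the shallowest, with 8257490 counts in its members, and genes near 10 CPM there rest on fewer than 100 counts.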
